A study of Mus musculus with 186 samples.

Results

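The 10 genes described here encode subunits of voltage-gated calcium channels, and they were chosen by name from a table of 28338 mouse genes. They were followed through 186 bulk RNA-seq libraries from mice with mutations of Akap11, which encodes an anchoring protein for protein kinase A. Tissue was microdissected from frozen brain in a cryostat and covered 6 regions: striatum (STR), thalamus (TH), substantia nigra (SN), hippocampus (HP), and prefrontal (PFC) and somatosensory (SSC) cortex. Mice were 4 or 12 weeks old and were wild type (WT), heterozygous (HET, Akap11 +/-) or homozygous mutant (KO, Akap11 -/-). These 36 groups held 5 libraries in 30 cases and 6 libraries in 6 cases, with 96 libraries at 4 weeks and 90 at 12 weeks. WT libraries of the same region and age served as controls, and the labels name no treatment. The sources used here give no strain, sex or account of how the Akap11 allele was made, so how far a KO library stands for a complete loss cannot be told from the labels.

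A voltage-gated calcium channel is built around a pore-forming alpha1 protein that senses membrane voltage and lets calcium into the cell, and auxiliary proteins set how many channels reach the surface and how they gate. Cacna1a (P/Q-type) and Cacna1b (N-type) encode the channels that trigger transmitter release at most central synapses. Cacna1c and Cacna1d encode L-type channels, which couple dendritic calcium entry to gene transcription and support pacemaking, and Cacna1e encodes the R-type channel. Cacna1g, Cacna1h and Cacna1i encode T-type channels, which open near rest and drive burst firing in thalamic relay and reticular neurons. Cacna2d1 and Cacna2d3 encode alpha2delta proteins, extracellular partners that carry channels to the surface, and alpha2delta-1 is a target of gabapentin.

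In the GRCm38 annotation (GENCODE M21) all 10 members are protein-coding genes. Cacna1a lies on chr8:84388440-84640246 (plus strand), Cacna1b on chr2:24603887-24763152 (minus), Cacna1c on chr6:118587240-119196418 (minus) and Cacna1d on chr14:30039939-30491455 (minus). Cacna1e lies on chr1:154390731-154884501 (minus), Cacna1g on chr11:94408391-94474198 (minus), Cacna1h on chr17:25374285-25433783 (minus) and Cacna1i on chr15:80287238-80398279 (plus). Cacna2d1 lies on chr5:15934691-16374511 (plus) and Cacna2d3 on chr14:28904943-29721864 (minus). Of the genes in the count table, those on the opposite strand overlap 6 members: Gm16183 lies over Cacna1a, Dcp1b over Cacna1c, Chdh and Dcp1a over Cacna1d, Tpsg1 over Cacna1h, Gm43000 over Cacna2d1 and Lrtm1 over Cacna2d3. Overlap here is that of whole gene spans, and whether exons overlap was not examined. The sources used here do not say whether the counting used strand. Any reads shared by such pairs could therefore have been assigned to either gene.

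Cacna1b and Cacna2d1 followed the most similar pattern of any member pair over the 36 groups, so the stretch of up to 250 bases before their RefSeq starts is shown here, with that of Cacna2d3, the member with the largest share of its variance between regions. RefSeq promoter windows (GRCm38.p6) were found for 7 of the 10 members. Capitals mark matches to GCGNGGGCG, the motif bound by EGR factors, searched on both strands.
Cacna1b, chr2:24763153-24763402, minus strand: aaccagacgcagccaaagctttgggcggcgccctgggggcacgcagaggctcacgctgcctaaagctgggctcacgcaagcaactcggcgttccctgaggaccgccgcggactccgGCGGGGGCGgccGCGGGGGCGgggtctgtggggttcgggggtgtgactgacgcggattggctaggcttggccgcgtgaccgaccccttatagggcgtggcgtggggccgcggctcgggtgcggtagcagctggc
Cacna2d1, chr5:15934441-15934690, plus strand: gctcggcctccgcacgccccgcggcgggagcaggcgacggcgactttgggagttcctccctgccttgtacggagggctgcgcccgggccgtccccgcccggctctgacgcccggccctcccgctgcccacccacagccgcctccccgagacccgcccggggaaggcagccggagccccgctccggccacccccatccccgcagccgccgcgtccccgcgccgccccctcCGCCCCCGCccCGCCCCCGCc
Cacna2d3, chr14:29721865-29722114, minus strand: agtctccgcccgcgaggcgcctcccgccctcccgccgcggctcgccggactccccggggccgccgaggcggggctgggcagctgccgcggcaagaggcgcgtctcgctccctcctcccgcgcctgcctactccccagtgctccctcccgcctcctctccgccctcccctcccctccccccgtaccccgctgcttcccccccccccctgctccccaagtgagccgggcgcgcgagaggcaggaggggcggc
The Cacna1b and Cacna2d1 stretches each held 2 matches, on the gene's own strand in Cacna1b and on the other strand in Cacna2d1, and the Cacna2d3 stretch held 0. Of the 10 windows of the 7 members, 3 held the motif, the third being 1 of 3 Cacna1c windows, and over all 32851 mouse windows 4.70% did. The motif is mostly G and C, and the Cacna1b, Cacna2d1 and Cacna1c windows with it had 72.0, 82.4 and 82.8% of these bases. The median over all windows was 52.4%. Windows of Cacna2d3 (80.0%) and Cacna1d (86.4%) had no match, and the share in windows of like content was not computed. The cyclic AMP response element TGACGTCA, which protein kinase A signalling acts on through CREB, was in 1.55% of all windows and in none of the members' windows. A match or its absence describes these letters only.

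Library totals ran from 20794700 to 73344400 expected counts (mean 46110700 ± 9600350, SD, n = 186), and a single member had between 113 and 35995 expected counts in a library. Akap11 was 5.08 to 7.98% of its WT level in KO groups and 50.2 to 61.8% in HET groups. It was called lower in 12 of 12 KO comparisons and in 10 of 12 HET comparisons. The HET comparisons that missed it were those of hippocampus and substantia nigra at 4 weeks. The library labelled WT 92 of the substantia nigra at 4 weeks had 44.8 CPM of Akap11 against a WT median of 221 CPM, where CPM are edgeR's counts scaled to the TMM-adjusted library size. Without that library the nigral HET difference of Akap11 was log2 -0.89 ± 0.10 (SE) and was called (edgeR adjusted p 0.0014). The defining markers of each region were highest in that region in 30 of 30 striatal, 32 of 32 nigral, 29 of 31 thalamic, 29 of 31 hippocampal and 44 of 62 cortical libraries. Several 4-week libraries stood apart by carrying markers of a neighbouring region, and these are named beside the members they touch. In bulk tissue, fewer cells of a type and less RNA per cell cannot be told apart.

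Both release channel genes had their highest means in somatosensory cortex, and Cacna1a had its lowest in substantia nigra. In WT libraries Cacna1a had 381 ± 54.7 CPM (SD, n = 5) in somatosensory cortex at 4 weeks and 114 ± 35.4 CPM (n = 6) in substantia nigra. Its nigral group held the library labelled WT 92 at 54.8 CPM, the lowest of the 186 libraries. Against the average of the log2 levels in the other 5 regions, Cacna1a was higher in somatosensory cortex by 1.12 ± 0.12 (log2, SE) at 4 weeks and 0.76 ± 0.08 at 12 weeks, and lower in substantia nigra by the log2 values -1.01 and -0.67. Cacna1b ran in a similar order, with 221 ± 19.2 CPM in somatosensory cortex, 203 ± 16.5 CPM in prefrontal cortex and 83.6 ± 28.2 CPM in substantia nigra at 4 weeks. At 12 weeks these Cacna1b means were 159, 156 and 91.1 CPM. The cortical means of Cacna1b did not differ beyond their spread at either age, and neither did its nigral and thalamic means. Cacna1a in prefrontal cortex was second at 4 weeks (239 CPM) and at 12 weeks (163 CPM) did not differ beyond its spread from thalamus (164 CPM).

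The L-type genes differed in where they peaked. Cacna1c was highest in thalamus, with 162, 177 and 197 CPM as the lowest, median and highest of the 5 WT libraries at 12 weeks, and lowest in substantia nigra with 36.4, 38.9 and 43.6 CPM. The groups did not overlap, and Cacna1c was called higher in thalamus (log2 1.10 ± 0.08) and lower in substantia nigra (log2 -1.51 ± 0.10) at that age. At 4 weeks the WT means of thalamus (189 ± 41.5 CPM) and striatum (170 ± 18.8 CPM) did not differ beyond their spread (log2 difference 0.13, edgeR adjusted p 0.685). Neither did those of striatum and hippocampus (140 ± 21.8 CPM) at that age. At 12 weeks striatum (119 ± 19.3 CPM) and hippocampus (118 ± 22.4 CPM) did not differ beyond their spread. Cacna1d was the least regional L-type gene in CPM, from 23.3 CPM in substantia nigra to 63.2 CPM in prefrontal cortex at 4 weeks. It was called higher in prefrontal cortex at both ages, by log2 0.66 ± 0.15 and 0.55 ± 0.06.

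Cacna1e, the R-type gene, was lowest in thalamus at 12 weeks, and at 4 weeks its thalamic and nigral levels did not differ beyond their spread. The 5 WT thalamic libraries at 12 weeks had 5.14, 3.83, 8.75, 7.28 and 19.1 CPM, while WT substantia nigra averaged 81.1 ± 10.1 CPM, striatum 259 ± 45.5 CPM and hippocampus 332 ± 69.5 CPM. Every thalamic library lay below those groups, and the log2 difference of thalamus from the other 5 regions was -4.44 ± 0.26. At 4 weeks substantia nigra averaged 57.3 ± 25.4 CPM and thalamus 50.7 ± 79.4 CPM (log2 difference 0.13, adjusted p 0.881). The 6 thalamic WT libraries of that age had 3.35, 16.5 and 210.0 CPM as lowest, median and highest, with 46.4 CPM in library 914 and the highest value in library 913. Library 913 also had the highest hippocampal marker score of the thalamic libraries at 5.84 (mean log2(CPM + 1)), against 2.45 to 3.37 in the other 4-week libraries, and its part in the 4-week value was not tested. The 4-week difference was -1.98 ± 0.48 with it. The difference was -3.85 without the 6 WT libraries that carried markers of other regions or stood apart. These included thalamic libraries 913, 914 and 23 but were not all thalamic.

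Among the T-type genes, Cacna1g and Cacna1h were ordered almost oppositely. Cacna1g had 367, 412, 448, 368 and 480 CPM in WT thalamus at 12 weeks and 10.2, 9.70, 15.9, 10.3 and 9.26 CPM in striatum. Every thalamic library exceeded every striatal library, and the means differed 37.5-fold. The log2 difference from the other 5 regions was 2.79 ± 0.07 in thalamus and -3.46 ± 0.11 in striatum. Cacna1h was highest in hippocampus (202 ± 33.1 CPM) and striatum (173 ± 13.3 CPM) at 12 weeks, 2 groups that did not differ beyond their spread, and lowest in thalamus (10.2 ± 4.33 CPM) and somatosensory cortex (23.1 ± 3.19 CPM). Its 12-week log2 differences were 2.18 in hippocampus, 1.93 in striatum, -1.57 in somatosensory cortex and -3.00 in thalamus. Cacna1i was highest in somatosensory cortex (330 ± 42.6 CPM at 4 weeks, 202 ± 16.02 CPM at 12 weeks) and striatum (249.3 ± 16.7 and 182 ± 29.6 CPM). It was lowest in thalamus as a whole, at 48.0 ± 30.5 and 32.6 ± 16.8 CPM, with log2 differences of -1.60 and -1.74.

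The alpha2delta genes also parted. Cacna2d3 was the most striatal member, with 545, 565, 441, 687 and 564 CPM in the 5 WT striatal libraries at 4 weeks. No WT library of another region passed 211 CPM at either age, so the groups did not overlap. The log2 difference of striatum from the other 5 regions was 2.43 ± 0.09 at 4 weeks and 2.08 ± 0.05 at 12 weeks. Cacna2d1 followed cortex, with 302 ± 26.1 CPM in somatosensory cortex and 242 ± 57.3 CPM in prefrontal cortex at 4 weeks against 55.7 ± 24.6 CPM in substantia nigra. Its 4-week log2 differences were 1.21 in somatosensory cortex, 0.80 in prefrontal cortex and -1.76 in substantia nigra.

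**Figure D1:**
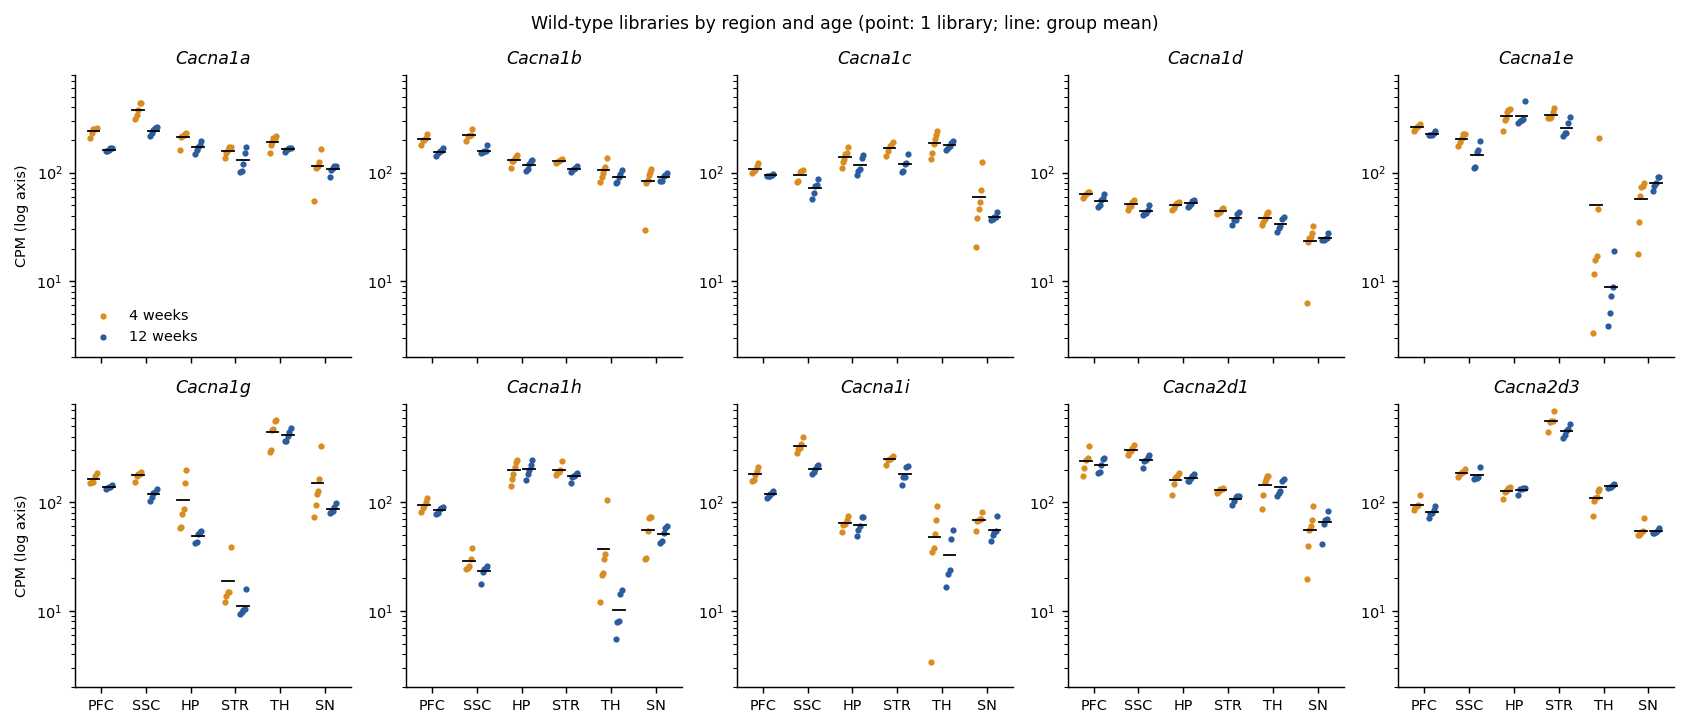
Each panel plots 1 member in WT libraries by region, with 4 weeks in orange and 12 weeks in blue, as CPM on a log axis, and a line at each group mean. Cacna1g spans from about its striatal means of 18.8 and 11.1 CPM to its thalamic means of 444 and 415 CPM, and Cacna2d3 stands highest in striatum.

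Counted over members, 37 of 60 region differences passed an adjusted p of 0.05 at 4 weeks (18 higher, 19 lower) and 49 of 60 at 12 weeks (27 higher, 22 lower). Regional differences were common among all genes, so these counts were read against that background. At 4 weeks substantia nigra had 9 called members (59% of all tested genes), thalamus 7 (48.1%), striatum 7 (52.9%), hippocampus 3 (36.4%), somatosensory cortex 6 (38.4%) and prefrontal cortex 5 (43%). At 12 weeks the members numbered 8 (67.8%), 7 (66.9%), 9 (67.3%), 7 (54.4%), 10 (56.4%) and 8 (57%) in the same order. All called nigral members were lower there, 9 at 4 weeks and 8 at 12 weeks, and Cacna1g was called in substantia nigra at neither age. The 4-week call of nigral Cacna1h (-0.62, adjusted p 0.0436) was lost without any of 5 libraries. Without the libraries that stood apart it was -0.13 (adjusted p 0.465). The 4-week call of prefrontal Cacna1i was lost without any of 2 libraries. At 12 weeks the striatal Cacna1b call was lost without any of 22 libraries (edgeR adjusted p up to 0.193). The somatosensory calls of Cacna1e and Cacna1d at 12 weeks were lost without any of 3 and 2 libraries, and that of hippocampal Cacna2d1 without any of 2. Without the 6 WT libraries that carried markers of other regions or stood apart, the 4-week count was 47. Of 50 neighbouring pairs in the members' regional orders, 34 did not differ beyond their spread at 4 weeks and 15 did not at 12 weeks.

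Levels of different members can be set beside each other only per length, here CPM per kilobase of the longest annotated transcript. On that scale Cacna2d3 in striatum was the highest of all, at 152 CPM per kb at 4 weeks and 122 at 12 weeks. Cacna1g in thalamus came to 53.0 and 49.5 CPM per kb, and Cacna1a in somatosensory cortex to 48.0 and 30.7. Cacna1d had the lowest level of the alpha1 genes in cortex at 4 weeks, from 5.27 to 6.54 CPM per kb, apart from Cacna1h in somatosensory cortex at 3.46. The 10 members together summed at 4 weeks to 87.7 CPM per kb in substantia nigra, 168 in thalamus, 177 in hippocampus, 191 and 247 in prefrontal and somatosensory cortex, and 295 in striatum. Cacna2d3 alone gave 152 of the 295 CPM per kb in striatum.

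Region accounted for most of the variation of each member over the 186 libraries, from 75.8% of the variance of Cacna1a and Cacna1b to 96.1% for Cacna2d3. Age within region held 0.350% (Cacna2d3) to 13.5% (Cacna1a), and genotype within region and age 0.347% (Cacna1e) to 5.47% (Cacna1i). Differences between libraries of a group held 2.80 to 13.4%. These shares are a description without a test, and spread between libraries also enters the age and genotype shares. Over the 36 group means, whose points share libraries, depth and tissue makeup, the highest correlations between members were 0.874 (Cacna1b with Cacna2d1), 0.865 (Cacna1d with Cacna2d1) and 0.846 (Cacna1e with Cacna1h). The lowest were -0.761 (Cacna1g with Cacna1h) and -0.683 (Cacna1e with Cacna1g). Among 13149 genes, the closest pattern to Cacna2d3 was that of Slmap (Pearson r 0.980) and Bag5 (0.970), and to Cacna1g that of Ntmt1 (0.977) and Trim3 (0.975). Kit and Ntrk3 (both 0.973) were closest to Cacna1e, Cdhr1 (0.970) and Apaf1 (0.958) to Cacna1h, and Mknk2 (0.960) and Rab40c (0.958) to Cacna1c. Rnf165 (0.960) and Whsc1l1 (0.953) were closest to Cacna1d, Fam78b (0.956) and Oprd1 (0.953) to Cacna1i, and Nav3 (0.954) and Tecpr2 (0.946) to Cacna1b. For Cacna2d1 these were Slc4a10 (0.952) and Kif3b (0.951), and for Cacna1a 9330102E08Rik and 1810055G02Rik (both 0.935).

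In striatum, the region with the most genes called in KO libraries, Cacna1c was the single member called, at 4 weeks. Its 5 WT libraries had 181, 176, 158, 190 and 144 CPM, the HET libraries 184, 173, 169, 167 and 161 CPM, and the KO libraries 155, 107, 108, 114 and 137 CPM. KO 12 at 155 CPM overlapped WT 92 at 144 CPM, and the other 4 KO libraries lay below every WT and HET library. Cacna1c fell by log2 0.45 ± 0.10 (SE), from a mean of 170 to 124 CPM, with an edgeR adjusted p of 0.0243. It was the 1 member called of 10, beside 3.35% of all 15425 genes. The HET difference was 0.01. At 12 weeks the KO libraries had 104, 85.6, 104, 99.4 and 102 CPM and the WT libraries 101, 123, 103, 149 and 120 CPM, and the groups overlapped. The 12-week log2 difference was -0.28 ± 0.10 with an adjusted p of 0.133, and 0 of 10 members were called there beside 4.42% of genes.

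The 4-week Cacna1c value moved with cortical markers in the striatal libraries. KO 161, KO 51, KO 163 and WT 92 had cortical scores of 6.07, 5.65, 5.07 and 4.96 (mean log2(CPM + 1) of 8 cortical excitatory neuron markers), and the other striatal libraries at this age had 0.865 to 3.07. Of the 8 markers, 7 were higher in all 4 than in every other WT or KO library, and 2 were at 0 CPM in one of those. Their summed level ran from 18.9 to 851 CPM in WT (median 25.6), from 18.2 to 133 in HET and from 17.6 to 1581 in KO (median 750). Leaving out the 4 libraries kept only KO 12 and KO 932 in KO, and every value given here without the 4 rests on them. The Cacna1c difference was then -0.28 ± 0.09 with an edgeR adjusted p of 0.119. With all libraries and the score as a covariate the difference became -0.32 ± 0.07 (edgeR adjusted p 0.0145). The call was also lost without KO 161 (0.0682), KO 163 (0.0575), KO 51 (0.0652), WT 142 (0.0646), WT 42 (0.0597) or WT 914 (0.0729) alone. In a fit of the 2 genotypes alone its adjusted p was 0.116, at the same difference. At 12 weeks the cortical sums were 11.1 to 20.5 CPM over all striatal libraries.

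The other members were not called in striatum, and KO values of some of them spread with the same 3 KO libraries. Cacna1h had 190, 200, 188, 240 and 179 CPM in WT and 202, 83.7, 136, 133 and 174 CPM in KO at 4 weeks, a log2 difference of -0.46 ± 0.17 (adjusted p 0.150). Cacna1i had 247, 253, 222, 267 and 257 CPM in WT and 251, 157, 187, 177 and 219 CPM in KO, a difference of -0.33 ± 0.10 (adjusted p 0.0976). The 3 lowest KO values of both genes were those of KO 51, KO 161 and KO 163. Without the 4 high-cortical libraries the differences were -0.13 and -0.09. At 12 weeks, with low cortical markers in every library, they were -0.20 ± 0.08 (adjusted p 0.211) and -0.26 ± 0.10 (adjusted p 0.168). Cacna1i also passed at 12 weeks without WT 3 (-0.33, adjusted p 0.0409), and both passed at 4 weeks without KO 12, at -0.60 (0.0298) and -0.43 (0.0113).

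Cacna1g, scarce in striatum and plentiful in cortex, had 14.8, 13.7, 15.05, 12.1 and 38.4 CPM in WT and 9.47, 49.2, 28.6, 49.7 and 12.9 CPM in KO at 4 weeks. The high values were WT 92 and the 3 KO libraries with high cortical scores, and HET libraries had 11.2 to 14.8 CPM. Its difference was 0.68 ± 0.41 (adjusted p 0.415) with all libraries and -0.33 without those 4, so its sign turned. Cacna2d3, the striatal alpha2delta gene, had 545, 565, 441, 687 and 564 CPM in WT and 753, 305, 385, 329 and 572 CPM in KO. The difference was -0.26 ± 0.20 (adjusted p 0.557), and 0.23 without the 4 libraries. Cacna1d stood at 0.16 ± 0.06 (adjusted p 0.181), Cacna1e at -0.10, Cacna1b at -0.06, Cacna1a at -0.02 and Cacna2d1 at 0.02, none of them called. The median over the 10 members was -0.08 at 4 weeks and -0.07 at 12 weeks, beside medians of -0.0015 and 0.0053 over all genes.

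**Figure D2:**
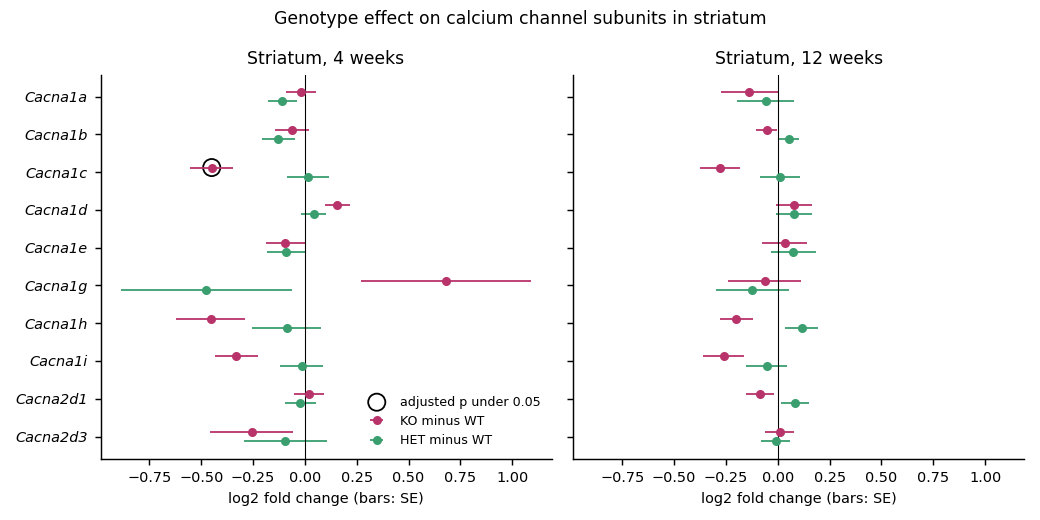
Points give the log2 difference of KO (red) or HET (green) from WT in striatum for each member, with SE bars, at 4 weeks on the left and 12 weeks on the right. The circled point is Cacna1c at 4 weeks, at -0.45, and the widest bar belongs to Cacna1g at 4 weeks.

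**Figure D3:**
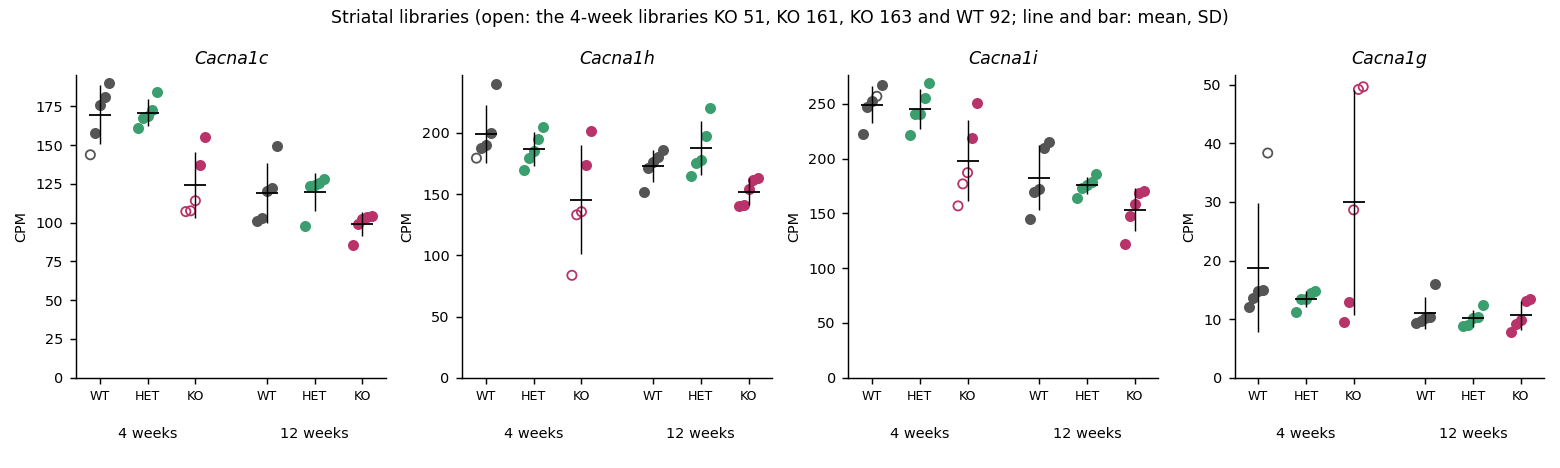
CPM of Cacna1c, Cacna1h, Cacna1i and Cacna1g in each striatal library by genotype and age, with lines at group means and bars of 1 SD. Open points are the 4-week libraries KO 51, KO 161, KO 163 and WT 92, which hold the 3 lowest KO values of the first 3 genes and the 4 highest values of Cacna1g.

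Tests of the differences between effects called no member. The KO effect at 12 weeks minus that at 4 weeks was called for 0 of 60 member and region pairs, beside 0% of all genes in each of the 6 regions, and 1 of the 60 had an unadjusted p under 0.05. For striatal Cacna1c it was 0.16 ± 0.15 (edgeR adjusted p 0.905). The KO effect in striatum minus its average in the other 5 regions was called for 0 of 10 members at 4 weeks and 0 of 10 at 12 weeks, beside 3.52% and 3.11% of genes. For Cacna1c it was -0.46 ± 0.21 (adjusted p 0.277) and -0.27 ± 0.12 (adjusted p 0.317). So the striatal values of Cacna1c were not shown to differ from those of other regions or between ages.

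Outside striatum no member was called in KO or HET libraries. In KO at 4 weeks 0 of 10 were called in substantia nigra (0.00617% of all genes), thalamus (0.0128%), hippocampus (0.00609%), somatosensory cortex (0.0564%) and prefrontal cortex (0.0125%). At 12 weeks the KO counts were also 0 of 10 in each, beside 0.0364%, 0.0064%, 0.00608%, 0.0252% and 0.0123% in the same order. HET libraries gave 0 of 10 in each of the 6 regions at 4 weeks, beside a background of 0% (substantia nigra), 0.00639% (thalamus), 0.00648% (striatum), 0% (hippocampus), 0.00627% (somatosensory cortex) and 0.00626% (prefrontal cortex). At 12 weeks they gave 0 of 10 in each, beside 0.00606%, 0.0064%, 0.0064%, 0.00608%, 0.00629% and 0.00613% in that order. The HET comparisons of hippocampus and substantia nigra at 4 weeks missed Akap11 itself, so the 0 there does not show that the members were unchanged. At an unadjusted p under 0.05 the KO counts over all 6 regions were 12 of 60 at 4 weeks and 6 of 60 at 12 weeks, and the HET counts 12 and 3. No share of all genes at that threshold is given beside these counts, so they are not read as a result about the members. DESeq2 called 3 HET differences at 4 weeks (Cacna1i in hippocampus, Cacna1g and Cacna2d3 in thalamus) and 1 KO difference at 12 weeks (Cacna1i in thalamus). The shares above are those of edgeR and are no background for these calls, and the share of all genes called by DESeq2 is not given here.

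Cacna1i in thalamus gave the largest genotype values. At 12 weeks its WT libraries had 45.5, 16.4, 22.0, 55.2 and 23.8 CPM, the HET libraries 33.0, 14.5, 7.51, 13.8 and 8.58 CPM, and the KO libraries 9.03, 13.2, 9.64, 7.08 and 9.64 CPM. Every KO library lay below every WT library, and HET libraries overlapped WT. The KO difference was -1.73 ± 0.39 (log2) with an unadjusted p of 0.000451 and an edgeR adjusted p of 0.407, and DESeq2 gave an adjusted p of 0.0436. At 4 weeks WT libraries ran from 3.40 to 92.4 CPM (median 44.2) and KO libraries from 4.33 to 23.0 CPM, a difference of -2.22 ± 0.67 (edgeR adjusted p 0.237). It passed without WT 142, the library at 3.40 CPM (-2.47, edgeR adjusted p 0.0482), and was -1.30 without libraries 913, 914 and 23.

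Interneuron markers were set beside thalamic Cacna1i, a gene of thalamic reticular neurons, which are inhibitory. The list was Pvalb, Sst, Gad1, Vip, Npy and Lhx6, of which Vip was at 0 CPM in some libraries of every thalamic group. At 4 weeks the summed markers ran from 33.9 to 868 CPM in WT (median 392), from 31.2 to 115 in HET and from 24.0 to 49.0 in KO, and 6 of 6 markers had lower means in HET and in KO. The Npy median at that age was nevertheless higher in KO (12.6 CPM) than in WT (9.02 CPM). WT 142, lowest for Cacna1i, had the lowest WT interneuron score at 1.95 against 3.62 to 4.38. At 12 weeks the sums were 53.5 to 888 CPM in WT, 63.2 to 544 in HET and 69.5 to 172 in KO, and 4 of 6 markers had lower means in KO. The lowest sum was that of WT 5, below every KO library, while every WT library had more Cacna1i than every KO library. The part of these markers in the Cacna1i values was not tested.

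In thalamus at 4 weeks the highest values of Cacna1h and Cacna1e were both in WT 913. Cacna1h had 105 CPM there and 12.2 to 33.5 CPM in the other 5 WT libraries, and its KO difference was -1.27 ± 0.41 (adjusted p 0.251). The Cacna1e KO difference was -1.14 ± 0.83 (adjusted p 0.545). Cacna1g, the main thalamic T-type gene, had 558, 473, 466, 288, 304 and 576 CPM in WT, and its 2 lowest libraries, 913 and 914, had the lowest thalamic marker scores. Its differences were 0.36 in KO (adjusted p 0.330) and 0.52 in HET (adjusted p 0.209), and 0.10 and 0.27 without libraries 913, 914 and 23.

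**Figure D4:**
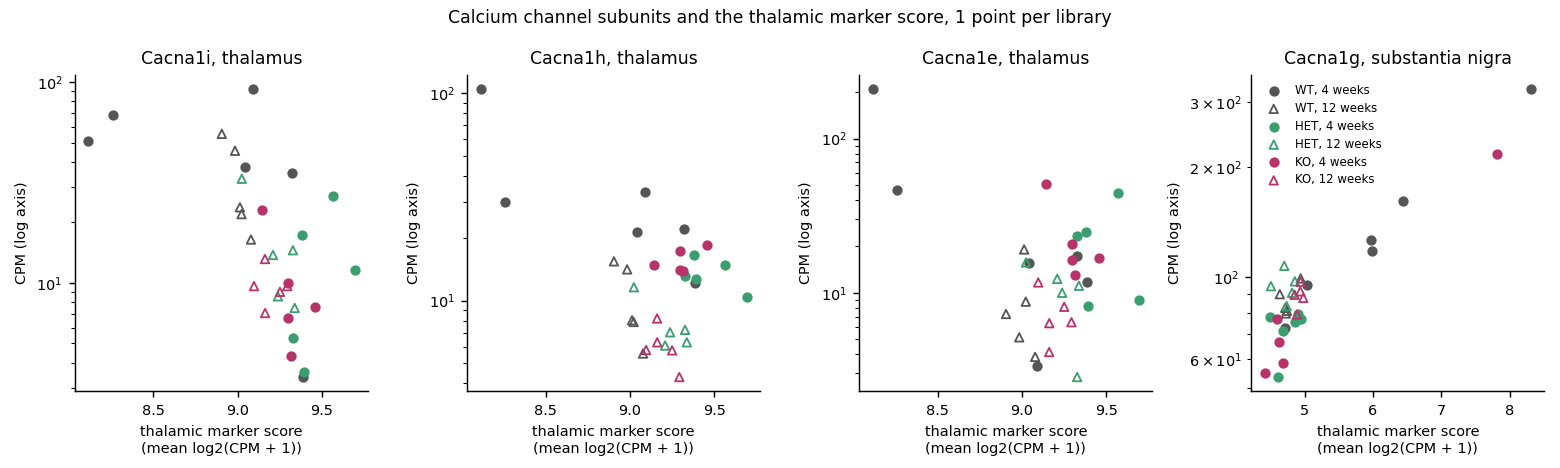
CPM (log axis) of Cacna1i, Cacna1h and Cacna1e in thalamic libraries and of Cacna1g in nigral libraries against the thalamic marker score (mean log2(CPM + 1) of 8 markers), 1 point per library, coloured by genotype and shaped by age. The 2 nigral libraries at the right, WT 42 and KO 91, have scores of 8.31 and 7.81 and Cacna1g levels of 326 and 216 CPM.

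Elsewhere, libraries with high thalamic markers also held the highest Cacna1g values. In substantia nigra at 4 weeks WT libraries had 72.9, 122 and 326 CPM as lowest, median and highest, HET libraries 53.5 to 79.7 CPM and KO libraries 54.9 to 216 CPM. The highest WT library (42) and KO library (91) had thalamic scores of 8.31 and 7.81 against 4.42 to 6.45 in the others, and all 8 thalamic markers had lower means in HET and in KO than in WT. All 8 dopamine neuron markers had higher means in both, with summed levels of 184 to 3469 CPM in WT (median 1193), 1329 to 5620 in HET (median 3492) and 342 to 2841 in KO (median 1542). The nigral differences of -0.66 ± 0.38 in KO (adjusted p 0.643) and -1.07 in HET (adjusted p 0.548) were not called. In hippocampus WT 23 and WT 914 had the highest Cacna1g of their group, at 197 and 149 CPM, with thalamic scores of 7.32 and 6.90. The part of these markers in the values was not tested.

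Besides thalamic Cacna1i at 12 weeks (1 of 10 members, beside 1.71% of all genes without overlap), 3 genotype comparisons had 1 member each whose groups did not overlap. None was called by edgeR, and among all genes 0.56%, 0.42% and 1.94% did not overlap in the order given here. Cacna1i in hippocampus at 4 weeks had 102, 96.1, 83.2, 87.1 and 169 CPM in HET and 53.7 to 75.0 CPM in WT (median 63.6). All HET libraries lay above all WT libraries, with a log2 difference of 0.74 ± 0.15, an unadjusted p of 0.000189 and an edgeR adjusted p of 0.447. The highest, HET 941, had the highest cortical score (6.83) and the lowest hippocampal score (5.42) of the hippocampal libraries at that age, and the part of this was not tested. KO libraries of hippocampus had 59.4 to 81.4 CPM of Cacna1i. Cacna1e in hippocampus at 12 weeks had 285.02, 286, 279, 230 and 262 CPM in HET and 305, 455, 313, 287 and 299 CPM in WT. Its HET difference was -0.31 ± 0.15 (unadjusted p 0.0502, edgeR adjusted p 0.9998), and KO libraries at 204 to 377 CPM overlapped WT. Cacna1g in prefrontal cortex at 4 weeks had 123, 115, 147, 129 and 137 CPM in KO and 174, 184, 153, 152 and 152 CPM in WT, a difference of -0.33 ± 0.09 (adjusted p 0.201).

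Between 4 and 12 weeks, WT levels of these genes moved mostly downwards. Over 60 member and region pairs 22 were called, 21 lower and 1 higher at 12 weeks. Somatosensory cortex had 7 called members (27.1% of all genes), striatum 5 (18.5%), prefrontal cortex 4 (19.1%), thalamus 4 (22.6%), hippocampus 2 (17.7%) and substantia nigra 0 (18.6%). In substantia nigra 4 members had an unadjusted p under 0.05 and DESeq2 called 1, both given without a share of all genes. Median log2 differences over the members were -0.43, -0.27, -0.21, -0.20, -0.03 and -0.06 in that order, and the medians over all genes lay between -0.02 and 0.02. The 2 ages were different libraries, numbered differently in the labels, so age and any difference in handling cannot be told apart.

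The release channel genes showed this most in cortex. Cacna1a in somatosensory cortex had 434, 341, 315, 437 and 376 CPM at 4 weeks and 256, 263, 248, 218 and 233 CPM at 12 weeks, without overlap. It fell by log2 0.64 ± 0.09 (adjusted p 2.65e-06), and by 0.55 ± 0.10 in prefrontal cortex. Cacna1a also fell in hippocampus (-0.30 ± 0.08) and thalamus (-0.24 ± 0.08), calls that were lost without hippocampal library WT 4 at 12 weeks and without any of 6 thalamic libraries. Cacna1b fell by 0.47 ± 0.07 in somatosensory cortex, 0.37 ± 0.07 in prefrontal cortex and 0.22 ± 0.06 in striatum, the last lost without striatal library WT 1 at 12 weeks (adjusted p 0.0529).

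Cacna1i fell furthest of the cortical members. It had 344, 319, 284, 396 and 309 CPM in somatosensory cortex at 4 weeks and 181, 214, 220, 200 and 192 CPM at 12 weeks. These did not overlap, and the log2 difference was -0.71 ± 0.09 (adjusted p 5.1e-07), with -0.61 ± 0.09 in prefrontal cortex and -0.42 ± 0.10 in striatum. Cacna1g fell by 0.57 ± 0.09 in somatosensory cortex and by 1.10 ± 0.24 in hippocampus (adjusted p 0.00179), where the thalamic score of the 4-week libraries WT 23 and WT 914 was high. Cacna1c fell in striatum, from 170 to 119 CPM (-0.48 ± 0.10, adjusted p 0.00136), and in somatosensory cortex (-0.39 ± 0.12), the latter lost without WT 5 at 12 weeks (adjusted p 0.0572). Cacna1e fell in somatosensory cortex (-0.48 ± 0.13) and striatum (-0.38 ± 0.10).

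The remaining called changes were in thalamus and among the less variable genes. Cacna1h (-1.89 ± 0.37, adjusted p 5.19e-04) and Cacna1e (-2.55 ± 0.73, adjusted p 0.0123) fell in thalamus. Without libraries 913, 914 and 23 these were -0.85 (adjusted p 0.0265) and -0.75 (adjusted p 0.386), and without library 913 alone Cacna1e was -1.09 (adjusted p 0.175). Cacna2d3 rose in thalamus, from 74.2 to 132 CPM at 4 weeks to 135 to 146 CPM at 12 weeks, without overlap (0.35 ± 0.11, adjusted p 0.0192). That rise was not called when the 3 genotypes were averaged (0.12, adjusted p 0.146) or without libraries 913, 914 and 23 (0.29, adjusted p 0.0668). Cacna2d1 fell by 0.24 ± 0.07 in striatum and 0.29 ± 0.11 in somatosensory cortex, and Cacna1d by 0.19 ± 0.06 in prefrontal cortex. The somatosensory Cacna2d1 call was lost without any of 6 libraries and the Cacna1d call without any of 5.

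**Figure D5:**
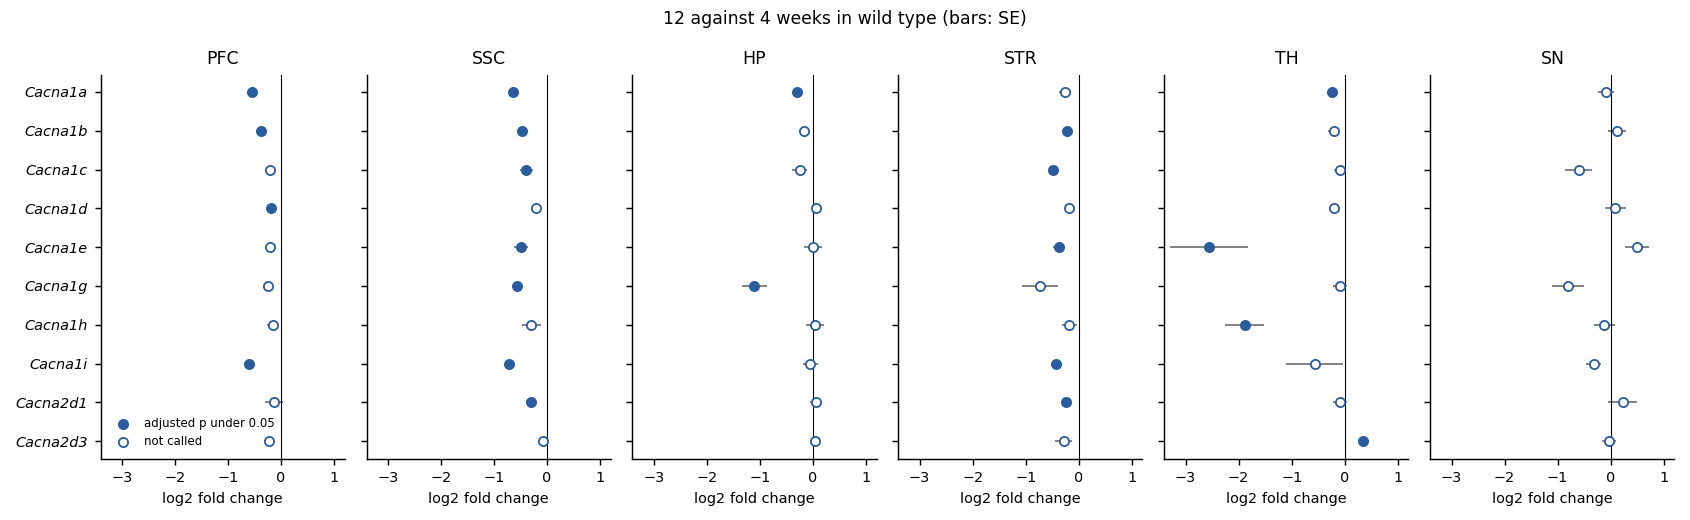
Log2 difference of 12 from 4 weeks in WT libraries for each member in each region, with SE bars; filled points passed an adjusted p of 0.05. All filled points lie left of 0 except Cacna2d3 in thalamus, at 0.35.

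Other genes of the calcium channel pathway were read from 3 lists. Of 16 further channel subunits 14 were tested in striatum, and 3 were called in KO at 4 weeks (1 higher, 2 lower) and 5 at 12 weeks (1 higher, 4 lower), beside 3.35% and 4.42% of all genes. The list medians were -0.24 and -0.29. Cacng7, which like other neuronal Cacng genes encodes a partner of AMPA receptors, rose at both ages. It went from 75.1 to 108 CPM in WT to 118 to 152 CPM in KO at 4 weeks, without overlap (0.60 ± 0.09, adjusted p 0.00135), and by 0.45 ± 0.07 at 12 weeks. Cacnb1, a cytoplasmic beta subunit, fell by 0.46 ± 0.11 at each age (adjusted p 0.0260 and 0.0192), and at 12 weeks its KO libraries (191 to 213 CPM) lay below its WT libraries (242 to 332 CPM). Cacnb3, another beta subunit, fell at 12 weeks by 0.50 ± 0.12, from 143 to 195 CPM in WT to 85.4 to 132 CPM in KO. Cacng8 fell at both ages (-0.29 and -0.27) and Cacng2 at 12 weeks (-0.50 ± 0.14). Without the 4 high-cortical libraries the 4-week values of Cacnb1 (-0.28, adjusted p 0.320) and Cacng8 (-0.26, adjusted p 0.187) were not called, and that of Cacng7 was. The 12-week Cacng2 call was lost without any of 11 libraries (adjusted p up to 0.124). Those of Cacnb1 and Cacnb3 were lost without any of 2 (up to 0.0580 and 0.0512). At 4 weeks Cacnb1 was lost without any of 4 libraries and Cacng8 without any of 5 (up to 0.0717 and 0.0823).

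Of 18 genes that regulate or scaffold these channels, 2 were called in striatal KO at 4 weeks (3.35% of all genes) and 1 at 12 weeks (4.42%), with list medians of -0.0023 and -0.00047. Akap5, an anchoring protein that holds protein kinase A at L-type channels, fell at 4 weeks from 476 to 577 CPM in WT to 272 to 452 CPM in KO (-0.55 ± 0.12, adjusted p 0.0182). The groups did not overlap, and without the 4 high-cortical libraries the difference was -0.30 (adjusted p 0.238). The call was also lost without WT 914 (0.0574). Stac rose by 1.52 ± 0.23 from a low level of 0.486 CPM. Cabp1, a calcium-binding regulator of L-type and P/Q-type channels, fell at 12 weeks by 0.46 ± 0.10 (adjusted p 0.0115). Of 24 genes of calcium stores and extrusion, 7 had an unadjusted p under 0.05 at 4 weeks, with no share of all genes given beside them. After adjustment edgeR called 0 of the 24 at 4 weeks and 3 at 12 weeks, all lower, beside the same shares of all genes as above. These were the plasma membrane pump gene Atp2b1 (-0.43 ± 0.10), the store sensor gene Stim2 (-0.25) and the sodium-calcium exchanger gene Slc8a2 (-0.30). These calls were lost without any of 6, 6 and 8 libraries, with adjusted p up to 0.0639, 0.0916 and 0.0975. In HET no gene of the 3 lists was called in striatum, beside 0.00648% and 0.0064% of all genes.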

How the data were processed

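Values analysed here are expected counts per gene that the authors deposited as a single table. Salmon and the mm10 build are named in the submitters' processing notes, and RNeasy extraction and a TruSeq Stranded mRNA kit in the labels' protocols. For the annotation and strand setting, the sources used here say nothing. Of the deposited expected counts above 0, 77.9% were not whole numbers, and all were rounded to whole numbers before testing. All 186 columns were matched to samples by name, and 0 columns of other samples were left unused. No 2 libraries of a group agreed within sampling noise (lowest chi-square per degree of freedom 8.36 over 390 pairs).

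Counts were tested in R 4.3.3 with edgeR 4.0.16 (TMM scaling, filterByExpr, quasi-likelihood F test), over all genes, with Benjamini-Hochberg adjustment over all genes tested and a threshold of 0.05. Each region and age was fitted with its 3 genotypes, age within each region with all 6 groups, and region on the WT libraries of an age. CPM were computed on TMM-scaled library sizes over all 186 libraries. Library totals were 20794700 to 73344400 expected counts, and no member had under 113 in any library. Thalamic Cacna1e, a low member, varied widely between libraries, at 8.82 ± 6.05 CPM (SD, n = 5) in WT at 12 weeks. Alternatives were RLE size factors, no filter, DESeq2 1.42.0, limma-voom (limma 3.58.1) with a block, the 2 genotypes alone, the cortical score as a covariate, replicate blocks, and leaving out each library. The labels do not say that libraries of a group came from separate animals, so p-values measure only the spread between these samples. Sample numbers recur across regions. The tests were checked on simulated data.

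Every member is reported. Named from the other subunits are those called, and from the regulators and the store and extrusion genes up to 4 called genes per striatal comparison, those with the largest change. Likeness is the Pearson correlation of group mean log2(CPM + 1) over 36 groups, among genes with an average log2 CPM of at least 1, with the 2 highest named. The members and lists were chosen with earlier results of these data known.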

Additional observations from a re-analysis of the deposited data

Results flagged for a closer look

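In 360 sets of a member and a group of 5 or 6 libraries, Dixon's test at the 95% level set apart 37 single libraries, and chance alone flags about 1 in 20 groups. The library labelled WT 92 of the substantia nigra at 4 weeks was low for Cacna1b (29.9 CPM) and Cacna1d (6.31 CPM). Its Akap11 level was low as well. In the same region and age WT 42 was high for Cacna1g (326 CPM) and Cacna2d3 (71.1 CPM), and KO 91 was high for Cacna1g (216 CPM), Cacna1c (78.1 CPM) and Cacna2d1 (91.4 CPM). Both had the highest nigral thalamic scores, whose part was not tested. HET 93 was low for Cacna1g (53.5 CPM), and WT 3 at 12 weeks was high for Cacna1d (27.5 CPM).

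In thalamus at 4 weeks WT 913 was high for Cacna1e (210.0 CPM) and Cacna1h (105 CPM), beside its high hippocampal score, and KO 163 was high for Cacna1e (50.9 CPM). At 12 weeks HET 1 was high for Cacna1i (33.0 CPM) and Cacna1h (11.6 CPM), beside the highest interneuron score of its group (4.19). In striatum WT 92 was high for Cacna1g (38.4 CPM) at 4 weeks, beside a cortical score of 4.96. At 12 weeks WT 3 was high for Cacna1g (15.9 CPM), while HET 2 (98.1 CPM) and KO 2 (85.6 CPM) were low for Cacna1c.

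In hippocampus at 4 weeks WT 914 was low for Cacna1a (160 CPM), HET 162 and KO 163 stood out for Cacna1d (67.5 and 58.8 CPM), and HET 941 and KO 932 were high for Cacna1i (169 and 81.4 CPM). At 12 weeks HET 4 stood out for Cacna1a (148 CPM), WT 2 for Cacna1e (455 CPM), HET 5 for Cacna1g (87.1 CPM) and WT 4 for Cacna2d3 (116 CPM). In somatosensory cortex at 4 weeks KO 12 was high for Cacna1i (382 CPM) and Cacna2d3 (255 CPM), and KO 163 stood out for Cacna1g (141 CPM), HET 93 for Cacna1h (51.8 CPM) and HET 931 for Cacna2d1 (318 CPM). At 12 weeks HET 5 stood out for Cacna1a (204 CPM), WT 3 for Cacna1b (178 CPM), HET 2 for Cacna1e (159 CPM) and WT 2 for Cacna2d3 (211 CPM). In prefrontal cortex WT 914 at 4 weeks was high for Cacna2d3 (116 CPM).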

How the results depend on the processing

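No result changed direction among called values under any alternative run. Of the single-gene results under settings other than leaving out a library, 766 kept their side of the threshold, 23 lost the call and 2 gained it; the corresponding numbers with each library left out were 3469, 116 and 4. The age counts moved when the 3 genotypes were averaged, to 8 in prefrontal cortex, 6 in hippocampus, 8 in striatum and 1 in substantia nigra. In substantia nigra DESeq2 gave 1 and a term for 16 libraries with few whole-number values gave 3. The striatal KO count at 4 weeks was 0 with the 2 genotypes alone and 0 without the 4 high-cortical libraries, an alternative chosen after seeing the data, as was the term for the 16 libraries. Leaving out those 4 kept only KO 12 and KO 932 as KO libraries. DESeq2 called 3 members in HET at 4 weeks and 1 in KO outside striatum at 12 weeks, given without its share of all genes. The cause of these moves was not tested. Leaving out each library, age counts ranged from 3 to 5 in prefrontal cortex, 5 to 8 in somatosensory cortex, 1 to 2 in hippocampus, 4 to 6 in striatum, 2 to 5 in thalamus and 0 to 2 in substantia nigra. KO counts ranged from 0 to 3 (4 weeks) and 0 to 1 (12 weeks) in striatum, and from 0 to 1 and 0 to 0 elsewhere. HET counts stayed at 0, the striatal difference from other regions ranged from 0 to 1 at 4 weeks and 0 to 0 at 12 weeks, and region counts ranged from 36 to 42 and 46 to 49. With the sample number as a replicate block, KO and HET counts at 12 weeks were 0, and region counts were 38 at 4 weeks and 49 at 12 weeks; limma-voom with the block called 0 for striatum against the other regions. Deviations of same-numbered KO and WT libraries at 12 weeks correlated from -0.245 to 0.618 (19 of 30 pairs over 0.1). Each of the 5 pairs was over 0.1 in hippocampus alone, where the block called 0 members as well. Between regions of one number in WT, 52 of 75 pairs were over 0.1 at 12 weeks and 31 of 76 at 4 weeks. The labels do not say what a number stands for, so whether numbers pair libraries was not settled.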
